A study of Mus musculus with 14 samples.

Results

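The genes described here are 10 direct transcriptional targets of the tumour suppressor p53: Mdm2, Bax, Ccng1, Zmat3, Phlda3, Eda2r, Aen, Trp53inp1, Bbc3 and Gdf15. They were chosen by name, as targets of the damage response and of apoptosis. The rule used no measured value, but earlier results of these data were known when the genes were chosen. All 10 were found among the 54446 genes of the count table, and all 10 passed the filter on low counts that left 17987 genes for testing. The data are RNA-seq counts from heart nuclei of wildtype ICR mice, collected at postnatal day 12 after enrichment for nuclei carrying PCM1, a protein on the nuclear envelope of cardiomyocytes. Mice of the MEF2A group (4 libraries) had received an AAV9 virus carrying human MEF2A, a muscle transcription factor, and mice of the YAP5SA group (3 libraries) an AAV9 virus carrying YAP5SA, a form of the growth regulator YAP that the Hippo kinases cannot switch off. Both transgenes were driven by the cTnT promoter, which is active in cardiomyocytes, and were injected into the abdomen at postnatal day 7 at 1e+11 genome copies per virus. The group given both viruses (2 libraries) received that dose of each, and the Control group (5 libraries) received no virus, so virus and transgene cannot be told apart in any comparison with Control. The labels do not say whether each library came from its own animal, so each p-value is set against a spread between libraries that may be technical.

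p53 is held at a low level by MDM2, the ubiquitin ligase that marks it for degradation, and accumulates when DNA damage or other stress blocks that step. It then binds pairs of short half-sites near its target genes and raises genes for cell cycle arrest, repair, altered growth signalling and apoptosis. In the heart, p53 and its targets are best known from cardiomyocyte loss after injury and from the arrest of cardiomyocyte proliferation after birth.

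Promoter windows from RefSeq (GRCm38.p6; 250 bases before to 50 after the transcript start) were matched for 8 of the 10 genes, in 12 windows, by symbol; Zmat3 and Trp53inp1 were not matched. The windows were searched for the p53 half-site, a 10-base motif that reads the same on both strands, and for a full site, meaning a pair of half-sites up to 13 bases apart with at most 3 mismatches in total, so that full sites and half-sites can overlap. A perfect half-site stood in 5 of the 12 windows, of 4 genes (Mdm2, Bax, Ccng1 and Aen), and in 8.36% of all 32817 windows of this length. A full site stood in 6 of the 12 windows, of 4 genes (Bax, Ccng1, Aen and Bbc3), and in 15.6% of all windows. Windows of the same gene can share bases. Bax and Ccng1 are printed whole because both carried a match and moved in opposite directions with YAP5SA, and Phlda3 because it had the largest fold change of the 10 and no match in its window. Capitals mark the matched site, or the full site with fewest mismatches where several matched. Each line reads 5′ to 3′ on the strand of the gene.
Bax, chr7:45466849-45467148, minus strand: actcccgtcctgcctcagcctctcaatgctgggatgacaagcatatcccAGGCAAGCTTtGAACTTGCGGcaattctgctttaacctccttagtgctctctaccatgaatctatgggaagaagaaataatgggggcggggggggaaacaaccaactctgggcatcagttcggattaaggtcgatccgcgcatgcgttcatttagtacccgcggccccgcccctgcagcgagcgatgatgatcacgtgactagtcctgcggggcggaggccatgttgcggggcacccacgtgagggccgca
Ccng1, chr11:40755237-40755536, minus strand: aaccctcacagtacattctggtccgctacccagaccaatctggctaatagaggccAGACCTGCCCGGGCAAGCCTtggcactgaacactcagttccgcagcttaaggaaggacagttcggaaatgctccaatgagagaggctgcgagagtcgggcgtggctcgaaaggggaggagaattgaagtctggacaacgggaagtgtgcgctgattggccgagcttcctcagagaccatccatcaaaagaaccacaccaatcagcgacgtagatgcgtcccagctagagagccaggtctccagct
Phlda3, chr1:135765835-135766134, plus strand: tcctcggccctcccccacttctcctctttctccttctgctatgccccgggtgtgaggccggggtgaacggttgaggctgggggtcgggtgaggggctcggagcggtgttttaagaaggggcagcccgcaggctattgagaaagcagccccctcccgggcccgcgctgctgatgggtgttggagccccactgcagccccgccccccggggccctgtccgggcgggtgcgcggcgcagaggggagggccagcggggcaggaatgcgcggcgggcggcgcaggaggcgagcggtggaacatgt

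The Bax site began 201 bases before the start, with 2 mismatches over the pair and 1 base between its half-sites, and the Ccng1 site 195 bases before the start, with 1 mismatch and no spacer. For comparison, the matches in Mdm2 (a half-site only, 186 bases before the start), Aen (3 mismatches, 121 bases before the start) and Bbc3 (3 mismatches, 97 bases before the start) are shown with 20 bases on each side. The same Aen site stands in both Aen windows and counts in each. In the window at chr7:78895677-78895976 it began 10 bases after the start. The Bbc3 window at chr7:16310011-16310310 held another full site, not shown, with 3 mismatches, 105 bases before its start. The last line is from Cdkn1a, the cell cycle inhibitor p21 and a p53 target outside the 10. Its window at chr17:29090729-29091028 held 2 full sites. The capitals mark the one with fewest mismatches, which had 0 mismatches and a spacer of 12 bases. The other full site is not marked, and the Cdkn1a window at chr17:29093519-29093818 held no match.
Mdm2: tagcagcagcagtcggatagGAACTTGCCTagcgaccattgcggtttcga
Aen: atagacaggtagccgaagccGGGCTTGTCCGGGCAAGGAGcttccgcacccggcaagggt
Bbc3: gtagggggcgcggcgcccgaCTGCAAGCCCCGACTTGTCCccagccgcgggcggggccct
Cdkn1a: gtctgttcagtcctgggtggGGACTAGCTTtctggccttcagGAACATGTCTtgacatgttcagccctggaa
No match was found in the windows of Phlda3, Eda2r and Gdf15, which says only that these letters do not stand in those windows. The matches are descriptions of sequence, and the data hold no measure of p53 binding.

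The libraries held 16171068 to 24027622 counts. Control 1 and Control 2 stood apart with 60.75% and 67.54% of their counts on the 37 mitochondrially encoded genes, YAP5SA 3 followed with 32.2%, and the share in the other 11 was 3.8% to 23.2%. Transcripts of the sex chromosomes marked the 3 YAP5SA libraries, 1 of the 4 MEF2A and 3 of the 5 Control libraries as male and the others, both double-virus libraries among them, as female. Sex and the second virus therefore cannot be told apart between YAP5SA and both viruses, and sex is largely shared with the group between YAP5SA and MEF2A. Every group had 2 libraries in the batch labelled 1; the remaining 3 Control, 2 MEF2A and 1 YAP5SA libraries formed batch 2. Summed cardiomyocyte markers (8 genes) were 37359 to 71151 CPM in Control, 66248 to 70935 in MEF2A, 24147 to 34438 in YAP5SA and 31587 to 34210 with both viruses. CPM are counts scaled to a fixed library total after trimmed-mean (TMM) normalization. Mouse Yap1 ranged from 39.3 to 76.3 CPM in YAP5SA against 49.9 to 77.3 in Control, and Mef2a from 569.8 to 623 CPM in MEF2A against 509.5 to 607 in Control, so these gene counts do not check the virus labels.

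Compared per kilobase of exon, the Control hearts had the highest nuclear RNA level of Mdm2, at 28.0 ± 2.85 CPM per kb (SD, n = 5), followed by Bax at 19.0 ± 3.38 and Ccng1 at 14.5 ± 5.98, and the spreads of Bax and Ccng1 overlapped. Phlda3 followed at 3.02 ± 0.502 CPM per kb. Trp53inp1 (1.70 ± 0.559), Bbc3 (1.44 ± 0.434), Gdf15 (1.15 ± 1.02) and Aen (1.01 ± 0.211) could not be ordered among themselves beyond their spread. Zmat3, at 0.543 ± 0.0477, and Eda2r, at 0.304 ± 0.259, had the lowest means per kilobase. They did not differ beyond the spread of Eda2r, and the spread of Gdf15 reached across both.

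**Figure D1:**
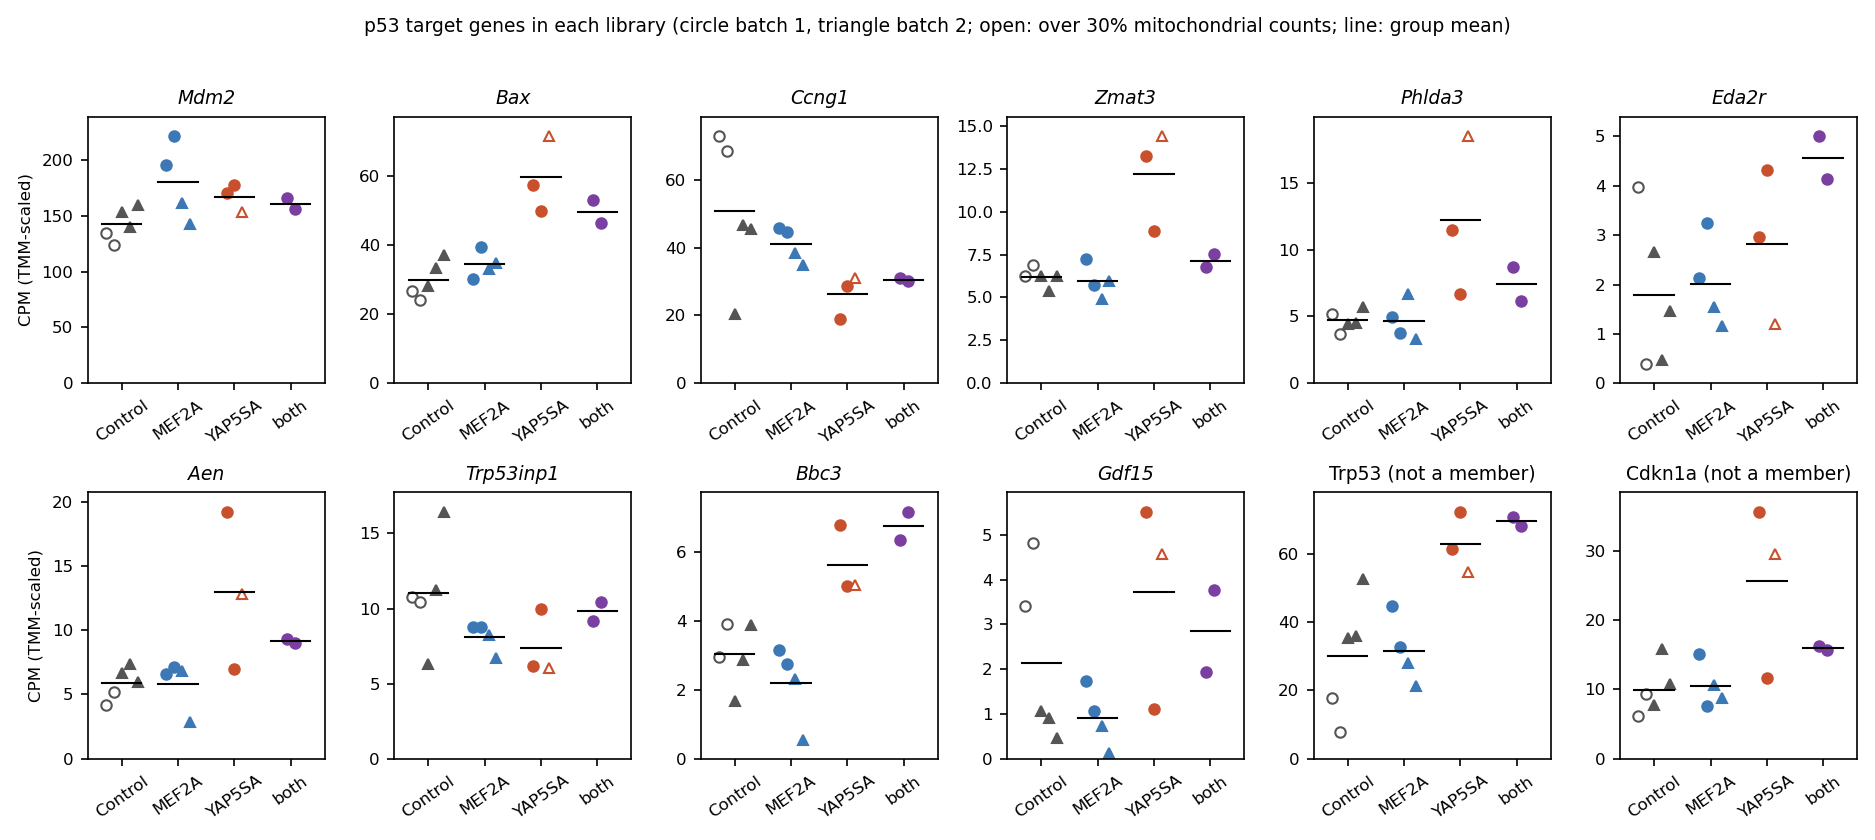
Level of each of the 10 p53 targets, and of Trp53 and Cdkn1a, in CPM (vertical axis, TMM-scaled) in every library of the 4 groups; circles are batch 1, triangles batch 2, open symbols libraries with over 30% mitochondrial counts, and lines group means. Bax lay at 49.99 to 71.48 CPM in YAP5SA and at 23.995 to 37.20 in Control, whereas Mdm2 overlapped between all groups.

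With YAP5SA, Bax, Zmat3 and Phlda3 rose against Control, Ccng1 fell, and the other 6 targets did not pass the test. Of the 10 genes, 3 were called higher, where 5.69% of all 17987 tested genes were, and 1 was called lower, where 4.17% of all tested genes were (edgeR, adjusted p under 0.05; 9.86% in either direction). The median log2 fold change of the 10 was 0.85, against 0.06 for all tested genes, and 8 of the 10 had a positive value. Bax, Zmat3, Phlda3 and Bbc3 lay higher in all 3 YAP5SA libraries than in any Control library, an arrangement found for 8.51% of all genes. None of the 10 lay lower in all 3, as 5.13% of all genes did.

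Mdm2 and Ccng1 act back on p53. Mdm2 (ENSMUSG00000020184; chr10:117688875-117710758, minus strand) encodes the ligase that degrades p53 and is itself induced by it. The Control libraries 1 to 5 had 134.4, 124.0, 153.6, 140.3 and 159.9 CPM of Mdm2, and the YAP5SA libraries 1 to 3 had 171, 178 and 153 CPM. YAP5SA 3 lay inside the Control range and YAP5SA 1 and 2 above it. The log2 fold change was 0.19 ± 0.18 (SE; adjusted p = 0.538, edgeR), with a 95% interval of -0.18 to 0.56, so a rise as large as the one fitted for Bax lay outside the interval. The value was -0.091 without Control 1 and Control 2 (adjusted p = 0.794).

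Ccng1 (ENSMUSG00000020326; chr11:40748552-40755311, minus strand) encodes cyclin G1, a partner of the PP2A phosphatase that acts on MDM2. Its levels in Control 1 to 5 were 72.8, 68.6, 20.5, 46.6 and 45.6 CPM, and in YAP5SA 1 to 3 they were 18.9, 28.8 and 30.9 CPM. Control 1 and Control 2 were the highest, and Control 3 lay within the YAP5SA range. Ccng1 fell by 0.98 ± 0.29 on the log2 scale (adjusted p = 0.0389, edgeR). This call was lost when any 1 of 12 of the 14 libraries was left out, and kept only without Control 3 (-1.16, adjusted p = 0.0043) or YAP5SA 3 (-1.41, adjusted p = 0.0264). Within batch 1, where both Controls had over 30% mitochondrial counts, Ccng1 averaged 70.7 CPM in Control and 23.8 in YAP5SA (log2 -1.61, adjusted p = 0.0074). Within batch 2 it averaged 37.5 CPM in Control and stood at 30.9 in YAP5SA 3, the only YAP5SA library there (log2 -0.29). Without Control 1 and Control 2 the value was -0.54 (adjusted p = 0.3), and the part of the mitochondrial share in the difference was not tested.

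The targets that carry out or favour apoptosis were led by Bax (ENSMUSG00000003873; chr7:45461697-45466898, minus strand), whose protein opens pores in the outer mitochondrial membrane. Bax stood at 26.64, 23.995, 28.28, 33.38 and 37.20 CPM in Control 1 to 5 and at 57.34, 49.99 and 71.48 CPM in YAP5SA 1 to 3. Every YAP5SA library was above every Control library. The rise was 1.06 ± 0.18 on the log2 scale (adjusted p = 0.00165, edgeR). It was called whichever of the 14 libraries was left out, with values of 0.96 to 1.13. The rise was present in batch 1 (25.3 CPM in Control, 53.7 in YAP5SA). It was also present in batch 2 (33.0 CPM in Control, 71.5 in YAP5SA 3, the only YAP5SA library there). Without Control 1 and Control 2 it was 0.94 (adjusted p = 0.0132). Of the 13 other settings, batch 2 alone is left aside here for its single YAP5SA library. Under the rest, the Bax call was lost only when Control 1, Control 2 and YAP5SA 3 were left out together (0.68, adjusted p = 0.417). Exons of Bax overlap those of the predicted gene Gm45808 on the same strand, so the counting may have split its reads.

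Bbc3 (ENSMUSG00000002083; chr7:16308393-16318205, plus strand) encodes PUMA, which frees BAX from its BCL2-type inhibitors. Its levels were 2.95, 3.91, 1.67, 2.86 and 3.89 CPM in Control 1 to 5 and 6.81, 5.02 and 5.06 CPM in YAP5SA 1 to 3. The groups did not overlap, yet the log2 difference of 0.74 ± 0.47 did not pass the test (adjusted p = 0.349, edgeR). Aen (ENSMUSG00000030609; chr7:78895854-78911209, plus strand), a nuclease of apoptotic DNA breakdown, stood at 4.19, 5.22, 6.65, 7.33 and 5.97 CPM in Control 1 to 5. In YAP5SA 1 to 3 it stood at 19.2, 6.96 and 12.8 CPM, so YAP5SA 2 lay within the Control range and YAP5SA 1 and 3 above it. The log2 difference of Aen was 1.14 ± 0.38 (adjusted p = 0.067, edgeR), and DESeq2 called it (adjusted p = 0.0321).

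Eda2r (ENSMUSG00000034457; chrX:97333840-97377216, minus strand) encodes a receptor of the tumour necrosis factor family. Control 1 to 5 had 3.97, 0.391, 2.65, 0.471 and 1.46 CPM, the value of Control 2 resting on 3 counts, and YAP5SA 1 to 3 had 2.97, 4.32 and 1.20 CPM. YAP5SA 2 lay above every Control, and YAP5SA 1 and 3 within the Control range. The log2 difference of 0.28 ± 0.69 (adjusted p = 0.848, edgeR) turned to -0.15 without Control 2. Trp53inp1 (ENSMUSG00000028211; chr4:11156431-11174379, plus strand), whose protein takes part in p53-driven death and in autophagy, had 10.8, 10.4, 6.28, 11.3 and 16.4 CPM in Control 1 to 5. It had 6.18, 9.997 and 6.01 CPM in YAP5SA 1 to 3. YAP5SA 1 and 3 were just below the lowest Control and YAP5SA 2 was within the Control range, with a log2 difference of -0.63 ± 0.34 (adjusted p = 0.258, edgeR).

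Phlda3 and Zmat3 act on growth signalling and RNA. Phlda3 (ENSMUSG00000041801; chr1:135766119-135769136, plus strand) encodes a small membrane-binding protein that holds back the kinase AKT. It stood at 5.21, 3.65, 4.45, 4.54 and 5.70 CPM in Control 1 to 5 and at 11.5, 6.69 and 18.5 CPM in YAP5SA 1 to 3. The groups did not overlap, and YAP5SA 2 was the lowest of its group and nearest to Control. The rise was 1.43 ± 0.35 on the log2 scale (adjusted p = 0.0155, edgeR). Without YAP5SA 1 it was 1.38 (adjusted p = 0.0688) and without YAP5SA 3 it was 1.05 (adjusted p = 0.226). It was 0.99 in batch 1 alone (adjusted p = 0.18) and 1.62 without Control 1 and Control 2 (adjusted p = 0.0212, both edgeR). In batch 2 alone, where YAP5SA 3 was the only YAP5SA library, it was 1.91.

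Zmat3 (ENSMUSG00000027663; chr3:32334792-32366014, minus strand) encodes a zinc finger protein that binds RNA and alters splicing. Its level was even in the Controls, at 6.23, 6.91, 6.24, 5.38 and 6.28 CPM, and was 13.2, 8.90 and 14.4 CPM in YAP5SA 1 to 3. All 3 YAP5SA libraries lay above the Controls. Zmat3 rose by 0.96 ± 0.29 on the log2 scale (adjusted p = 0.0429, edgeR), close to the threshold. The call held only without Control 2 (adjusted p = 0.0426) or YAP5SA 2 (adjusted p = 0.0165), and was lost when any 1 of the other 12 libraries was left out, with values of 0.71 to 1.14 over the 14 runs. The value was 0.71 in batch 1 alone (adjusted p = 0.23) and 1.03 without Control 1 and Control 2 (adjusted p = 0.0583, both edgeR). In batch 2 alone, with YAP5SA 3 as the only YAP5SA library, the value was 1.27.

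Gdf15 (ENSMUSG00000038508; chr8:70629393-70632456, minus strand) encodes a secreted stress hormone that is also a target of the integrated stress response. It stood at 3.40 and 4.83 CPM in Control 1 and 2, at 1.06, 0.908 and 0.462 in Control 3 to 5, and at 5.51, 1.10 and 4.56 CPM in YAP5SA 1 to 3. The high Controls were the pair with most mitochondrial counts, both of batch 1. The log2 difference was 1.07 ± 0.71 (adjusted p = 0.376, edgeR). Within batch 1 Gdf15 averaged 4.11 CPM in Control and 3.31 in YAP5SA, within batch 2 it averaged 0.81 in Control and was 4.56 in YAP5SA, and without YAP5SA 3 the fitted value was -0.16. The sign of the Gdf15 difference thus differed between the batches. In batch 1, YAP5SA 1 lay above both Controls and YAP5SA 2 below both, and in batch 2 YAP5SA 3 was the only YAP5SA library. Batch, mitochondrial share and single libraries cannot be told apart here.

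**Figure D2:**
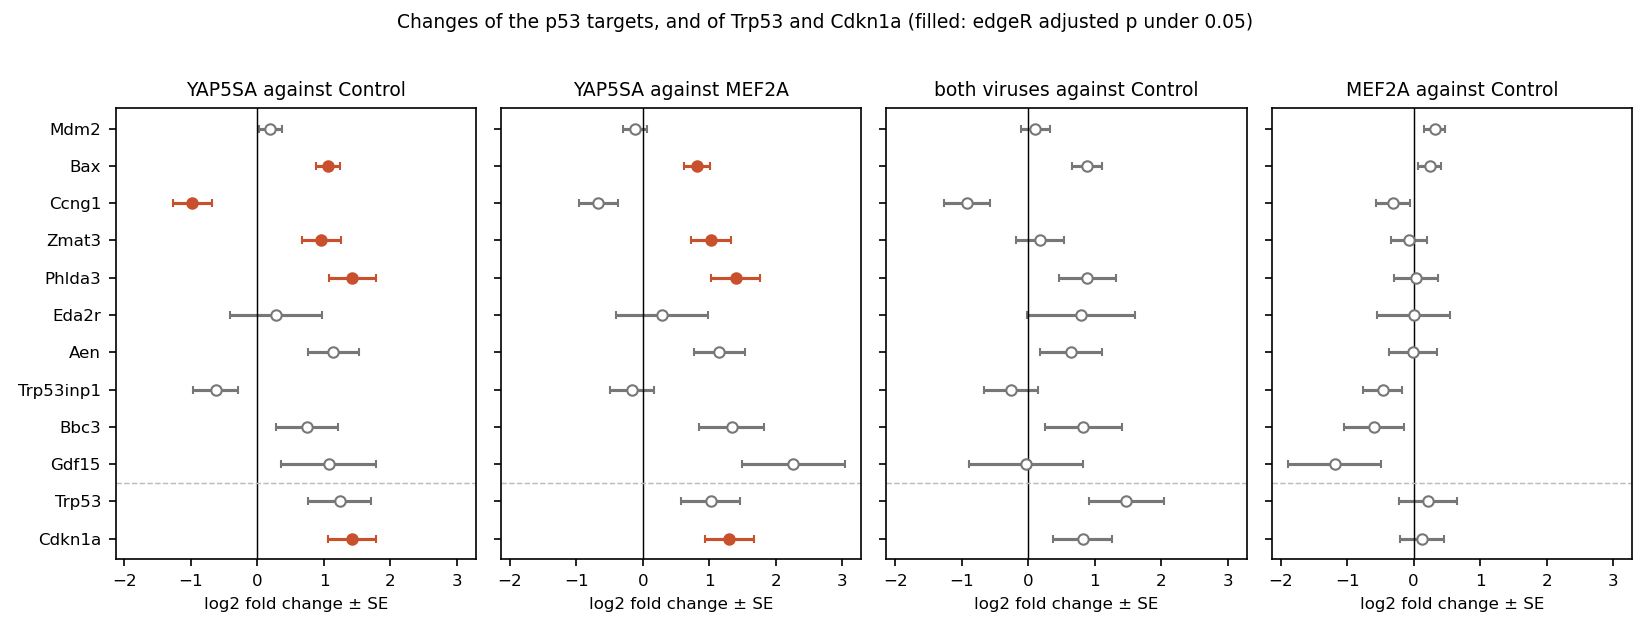
Log2 fold change (horizontal axis) with its standard error for the 10 p53 targets, Trp53 and Cdkn1a in 4 comparisons; filled points have an edgeR adjusted p under 0.05. Bax, Zmat3 and Phlda3 are filled to the right of 0 against both Control and MEF2A, Ccng1 is filled to the left against Control, and no point is filled in the other comparisons.

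Leaving out YAP5SA 3, the library of its group with most mitochondrial counts, left Bax (0.96, adjusted p = 0.0327) and Ccng1 (-1.41, adjusted p = 0.0264) called, and Zmat3 (0.71, adjusted p = 0.328) and Phlda3 (1.05, adjusted p = 0.226) not. YAP5SA 3 was also the library with the most macrophage marker RNA. Its 10 macrophage markers summed to 1027 CPM, against 193.6 and 82.8 in YAP5SA 1 and 2 and 55.6 to 193.0 in the Controls. Their median log2 fold change was 1.80, with 1 of 10 called higher (Mrc1, 1.80 ± 0.44, adjusted p = 0.0221, edgeR; 0.73 and adjusted p = 0.306 without YAP5SA 3), and of these markers Adgre1 was at 0 in Control 3 and Cd163 at 0 in Control 2. The 10 fibroblast markers summed to 3251 CPM in YAP5SA 3 and to 1786 to 1857 in YAP5SA 1 and 2, against 1318 to 2244 in Control, with 1 called higher (Mfap5, 0.97 ± 0.24, adjusted p = 0.0175, edgeR), a call lost without YAP5SA 1 (adjusted p = 0.0677) or YAP5SA 3 (0.48, adjusted p = 0.36). Of all tested genes, 5.69% were called higher against Control. The part of macrophages and fibroblasts in the values of YAP5SA 3 was not tested.

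Of the markers of other cell types, 5 of 10 endothelial genes were lower in YAP5SA (Egfl7, Tek, Robo4, Kdr and Tie1, log2 -1.13 to -0.84; sums of 315 to 523 CPM against 449 to 1043 in Control), as were 2 of 8 cardiomyocyte genes (Tnni3, -1.14 ± 0.28, adjusted p = 0.0156; Myh6, -0.89 ± 0.28, adjusted p = 0.0491; edgeR). Of all tested genes, 4.17% were called lower and 5.69% higher. No gene was called among 6 mural markers (420 to 478 CPM against 379 to 559), 5 tested lymphocyte markers (5.24 to 16.7 CPM against 5.21 to 10.2) or 6 markers of cycling cells (232 to 277 CPM against 70.7 to 516). The Myh6 call was lost when any 1 of 11 libraries was left out (adjusted p up to 0.252) and that of Tnni3 without Control 1, YAP5SA 1 or YAP5SA 3 (adjusted p up to 0.13). Among the endothelial genes Kdr was lost in 5 of the 14 runs and Robo4 in 4, and Egfl7 and Tek in the run without YAP5SA 3, while Tie1 was not included in these runs. Among the 6 lymphocyte markers Nkg7 was at 0 in all 3 YAP5SA libraries and in 4 of the 5 Controls. In bulk nuclei, fewer nuclei of a type and less RNA per nucleus cannot be told apart.

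Trp53, the gene of p53 itself, and Cdkn1a, its best known target, were set beside the 10. Trp53 had 17.9, 7.95, 35.3, 36.0 and 52.7 CPM in Control 1 to 5 and 61.3, 72.4 and 54.7 CPM in YAP5SA 1 to 3. The groups did not overlap, but Control 1 and Control 2 were far below the other Controls, and the log2 difference of 1.24 ± 0.47 did not pass the test (adjusted p = 0.117, edgeR). DESeq2 called it (adjusted p = 0.0192), as did edgeR with a sex term (1.68, adjusted p = 0.0124), with no filter on low counts (1.25, adjusted p = 0.000112) and within batch 1 (2.32, adjusted p = 0.00807), where the Controls averaged 12.9 CPM and YAP5SA 66.8 CPM. In batch 2 these levels were 41.3 CPM and, in YAP5SA 3 alone, 54.7 CPM (0.40). Without Control 1 and Control 2 the value was 0.26 (adjusted p = 0.519). With 1 library left out, edgeR called Trp53 in 0 of 14 runs (adjusted p of 0.052 to 0.284). Leaving aside batch 2 alone, no further setting among the 13 others called it.

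Cdkn1a had 6.12, 9.39, 7.71, 15.9 and 10.8 CPM in Control 1 to 5 and 35.7, 11.7 and 29.5 CPM in YAP5SA 1 to 3. YAP5SA 2 lay within the Control range, as it did for Aen, and YAP5SA 1 and 3 above it. Cdkn1a rose by 1.42 ± 0.36 on the log2 scale (adjusted p = 0.0179, edgeR). The call was lost without Control 1 (1.25, adjusted p = 0.0593), YAP5SA 1 (1.03, adjusted p = 0.139) or YAP5SA 3 (1.37, adjusted p = 0.13), and without both Control 1 and Control 2 (1.16, adjusted p = 0.107).

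Of 29 other p53 targets, 27 were tested, 2 rose with YAP5SA (Cdkn1a and Fas) and none fell, where 5.69% of all genes were called higher and 4.17% lower. Their median log2 fold change was -0.05. Fas, a death receptor, rose by 1.24 ± 0.32 (adjusted p = 0.0186, edgeR), from 6.47 to 27.3 CPM in the Controls to 28.0 to 47.2 in YAP5SA. The Fas call was lost without Control 1 (adjusted p = 0.0538), YAP5SA 1 (0.0874) or YAP5SA 3 (0.212). Of 20 regulators of p53, 18 were tested, none rose and 2 fell, with a median of 0.12. The 2 were Mdm4 (-0.96 ± 0.27, adjusted p = 0.0337), the partner of MDM2 that blocks p53, and Atr (-0.60 ± 0.18, adjusted p = 0.0401), a kinase of the damage checkpoint (both edgeR). The Atr call was lost when any 1 of 9 libraries was left out (adjusted p up to 0.31, without YAP5SA 3, where the value was -0.37). Mdm4 lay at 730 to 959 CPM in the Controls and at 306, 733 and 287 CPM in YAP5SA 1 to 3, so YAP5SA 2 was within the Control range. Its call was lost without Control 1 (adjusted p = 0.0561), Control 2 (0.0632), YAP5SA 1 (0.159) or YAP5SA 3 (0.261, at a value of -0.63).

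The BCL2 family holds the inhibitors and partners of BAX. Of 14 members outside the 10, 12 were tested and 2 rose with YAP5SA, both of them inhibitors of apoptosis: Mcl1 by 0.94 ± 0.19 (adjusted p = 0.00506) and Bcl2l1, the gene of BCL-XL, by 1.45 ± 0.40 (adjusted p = 0.0291, both edgeR). None fell, and the median was 0.83. For this list and the next, 5.69% of all tested genes were called higher in this comparison and 4.17% lower. The Mcl1 call was lost without YAP5SA 3 (adjusted p = 0.117), and that of Bcl2l1 without Control 1, 3, 4 or 5 or YAP5SA 1 or 3 (adjusted p up to 0.508, without YAP5SA 3, where the value was 0.63). In the integrated stress response, which shares Gdf15 with p53, 14 of 15 genes were tested, 6 rose and 1 fell, with a median of 1.12. The transcription factor gene Atf4 rose by 1.09 ± 0.23 (adjusted p = 0.00599), the serine synthesis gene Psat1 by 1.48 ± 0.26 (adjusted p = 0.00175) and Ddit4, an inhibitor of mTORC1, by 2.00 ± 0.45 (adjusted p = 0.00918, all edgeR). Ddit3, the gene of the stress factor CHOP, fell by 1.36 ± 0.22 (adjusted p = 0.000928, edgeR). Psat1 and Ddit3 were called whichever library was left out, and Atf4 (adjusted p = 0.0533) and Ddit4 (adjusted p = 0.09) in every run except the one without YAP5SA 1.

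**Figure D3:**
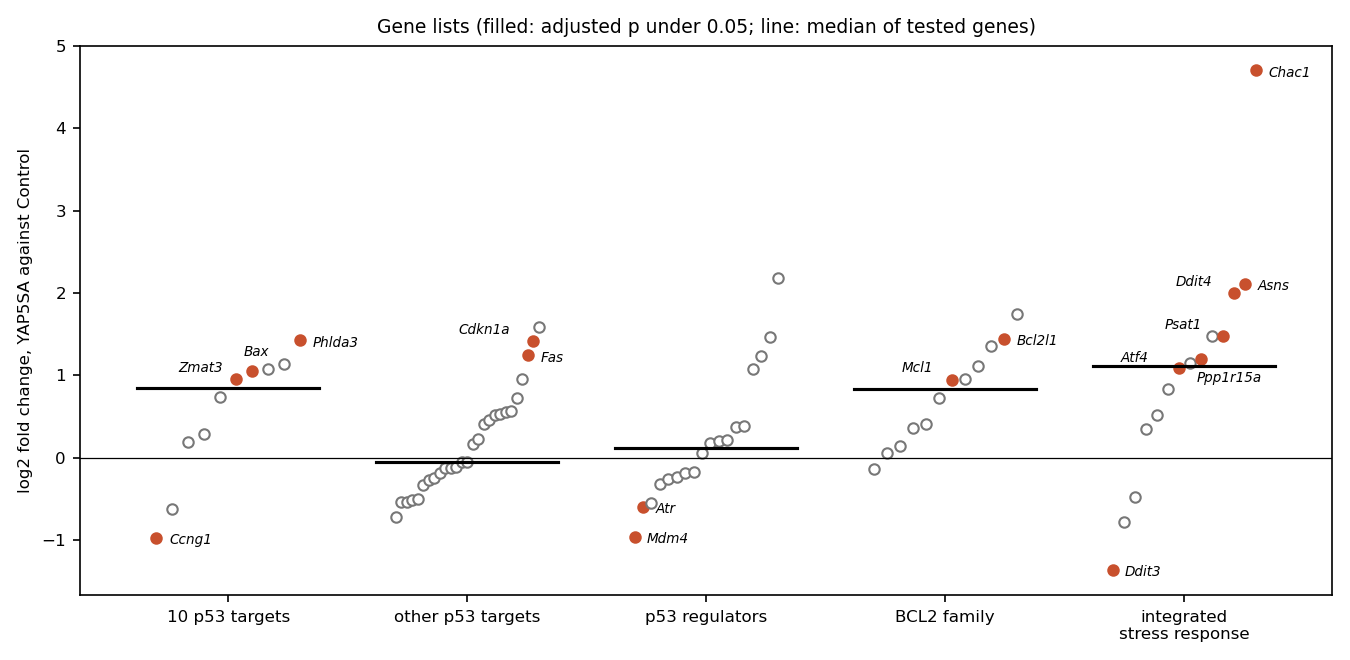
Log2 fold change in YAP5SA against Control (vertical axis) of each tested gene of 5 lists, sorted within a list; filled points have an edgeR adjusted p under 0.05 and lines are list medians. The medians are 0.85 for the 10 p53 targets, -0.05 for the other p53 targets, 0.12 for the p53 regulators, 0.83 for the BCL2 family and 1.12 for the integrated stress response.

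MEF2A and YAP5SA libraries both came from mice given 1 virus at the same dose, so this comparison holds no difference between virus and no virus. Bax, Zmat3 and Phlda3 were higher with YAP5SA than with MEF2A, and none of the 10 was called lower; 7.77% of all genes were called higher and 7.12% lower (edgeR). The adjusted p of the 10 ran from 0.00856 to 0.827 (edgeR). The median log2 fold change of the 10 was 0.92, against 0.08 for all genes. This comparison shares the YAP5SA libraries with the preceding one. The YAP5SA libraries were all male and 3 of the 4 MEF2A libraries female. With a sex term Bax (0.98, adjusted p = 0.00987) and Phlda3 (1.64, adjusted p = 0.0358) stayed called and Zmat3 was not (0.96, adjusted p = 0.104, all edgeR). Bbc3 (2.32, adjusted p = 0.0139) and Aen (1.70, adjusted p = 0.0279) were called with that term (edgeR). The only male MEF2A library was MEF2A 4, the lowest of its group for Bbc3 (0.547 CPM) and Aen (2.86 CPM). Its part in these added calls was not tested.

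Bax stood at 30.1, 39.4, 33.2 and 34.9 CPM in MEF2A 1 to 4, all below the YAP5SA libraries, and was 0.82 ± 0.19 higher with YAP5SA (adjusted p = 0.00856, edgeR). The Bax call was lost without YAP5SA 3 (adjusted p = 0.0725). Zmat3 stood at 7.24, 5.74, 4.89 and 5.96 CPM in MEF2A, likewise below all YAP5SA libraries, with a difference of 1.03 ± 0.30 (adjusted p = 0.0295, edgeR) that was lost when any 1 of 8 libraries was left out (MEF2A 1 to 4, YAP5SA 1, YAP5SA 3 and either double-virus library; adjusted p up to 0.227). Phlda3 stood at 4.95, 3.74, 6.72 and 3.28 CPM in MEF2A. MEF2A 3 was level with YAP5SA 2 (6.69 CPM), so these groups overlapped. The Phlda3 difference was 1.40 ± 0.37 (adjusted p = 0.0174, edgeR), lost without MEF2A 2, MEF2A 4, YAP5SA 1 or YAP5SA 3 (adjusted p up to 0.195).

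Gdf15, Bbc3 and Aen came near the threshold in this comparison. Gdf15 was lowest in MEF2A, at 1.74, 1.06, 0.72 and 0.122 CPM, the last resting on 2 counts, and its difference was 2.26 ± 0.78 (adjusted p = 0.0577, edgeR). Bbc3, at 3.16, 2.75, 2.30 and 0.547 CPM in MEF2A, lay below all YAP5SA libraries (1.34 ± 0.49, adjusted p = 0.072). Aen, at 6.59, 7.11, 6.81 and 2.86 CPM in MEF2A, overlapped with YAP5SA 2 (1.15 ± 0.39, adjusted p = 0.054). All of these were called by DESeq2, with adjusted p of 0.0185 for Gdf15, 0.0265 for Bbc3 and 0.0239 for Aen, and by edgeR without Control 1 and Control 2. With 1 library left out, edgeR called Bbc3 in 0 of 14 runs, and Gdf15 and Aen in 1 of 14, the run without YAP5SA 2. Without YAP5SA 3 the value of Gdf15 was 1.06 (adjusted p = 0.548), and without YAP5SA 1 that of Aen was 0.71 (adjusted p = 0.341).

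In total Bax, Zmat3 and Bbc3 lay above MEF2A in all YAP5SA libraries (15.9% of all genes did), and Ccng1 lay below (13.7% of all genes did). Ccng1 stood at 45.8, 44.5, 38.5 and 34.8 CPM in MEF2A, with a difference of -0.67 ± 0.30 (adjusted p = 0.138, edgeR). Mdm2 (-0.12, adjusted p = 0.698) was as high in MEF2A, at 196, 221, 162 and 143 CPM, as in YAP5SA. Eda2r (2.12, 3.25, 1.54 and 1.15 CPM in MEF2A) and Trp53inp1 (8.77, 8.80, 8.25 and 6.69 CPM) overlapped with YAP5SA and were not called. Cdkn1a was 1.30 ± 0.37 higher with YAP5SA (adjusted p = 0.025, edgeR), a call lost without MEF2A 2, 3 or 4 or without YAP5SA 1 or 3 (adjusted p up to 0.207). Trp53 differed by 1.02 ± 0.45 (adjusted p = 0.148, edgeR) and, with a sex term, by 1.78 (adjusted p = 0.0163, edgeR). With 1 library left out, edgeR called Trp53 in 1 of 14 runs (adjusted p of 0.042 to 0.307).

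The lists around the 10 are read against 7.77% of all genes called higher and 7.12% called lower with YAP5SA than with MEF2A. Of 27 tested other p53 targets, 4 were higher with YAP5SA, Fas among them (1.35 ± 0.34, adjusted p = 0.0124), and 4 lower, among them the repair gene Ercc5 (-0.76 ± 0.17, adjusted p = 0.0064, both edgeR). The Fas call was lost without YAP5SA 1 or YAP5SA 3 (adjusted p up to 0.142) and with a sex term (0.81, adjusted p = 0.192), and that of Ercc5 without YAP5SA 3 (adjusted p = 0.0573). Of 18 regulators 1 was higher and 2 lower, again Mdm4 (-1.34 ± 0.28, adjusted p = 0.00496) and Atr (-0.56 ± 0.18, adjusted p = 0.0461). The Mdm4 call was lost without YAP5SA 3 (adjusted p = 0.0554), and that of Atr when any 1 of 9 libraries was left out (adjusted p up to 0.329, without YAP5SA 3, where the value was -0.34). In the BCL2 family 5 of 12 were higher and 1 lower, with Mcl1 at 1.16 ± 0.20 and Bcl2l1 at 1.71 ± 0.43, the latter lost without MEF2A 4 (1.56, adjusted p = 0.0534) or YAP5SA 3 (0.94, adjusted p = 0.265). The integrated stress response had 5 of 14 higher and 2 lower, with Psat1 at 2.66 ± 0.28 and Ddit3 at -1.49 ± 0.23. Cell type markers moved alongside: 6 of 8 cardiomyocyte and 4 of 10 endothelial markers were lower with YAP5SA, 4 of 10 fibroblast, 4 of 10 macrophage and 4 of 6 cycling markers higher (sums of 232 to 277 CPM, within the Control range of 70.7 to 516, against 54.5 to 154 in MEF2A), and none of the mural or lymphocyte markers was called. Their part in the differences of the 10 was not tested.

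With MEF2A alone, none of the 10 targets was called against Control by edgeR (adjusted p of 0.697 or more) or DESeq2. Among all genes edgeR called 0.0167% at the same threshold in this comparison. The log2 fold changes ran from -1.19 for Gdf15 (± 0.70, adjusted p = 0.747) to 0.32 for Mdm2 (± 0.16, adjusted p = 0.697), with a median of -0.04 against 0.02 for all genes, and none of the 10 lay above or below every Control library, as 1.88% and 0.945% of all genes did. Without Control 1 and Control 2 the values were -0.32 for Gdf15 (adjusted p = 0.981) and 0.049 for Mdm2 (adjusted p = 0.989). Mdm2 was at 0.66 in batch 1 alone (adjusted p = 0.0686) and at 0.027 in batch 2 alone (adjusted p = 1). The 95% interval of Bax was -0.12 to 0.60 and that of Phlda3 -0.67 to 0.73, so these libraries leave room for a change of Phlda3 in either direction. None of the p53 regulators, other p53 targets, BCL2 family, integrated stress response or cell type marker genes was called in this comparison. Among the cell type markers, the 6 cycling genes had values of -1.88 to -0.88 (median -1.40), with adjusted p of 0.458 to 0.667 (edgeR). Their sums were 54.5 to 154 CPM in MEF2A against 70.7 to 516 in Control. The 8 cardiomyocyte genes had values of 0.03 to 0.60 (median 0.32), with adjusted p of 0.576 to 0.995 (edgeR).

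With both viruses, none of the 10 passed the test against Control by edgeR, where 1.36% of all genes did. Their median log2 fold change was 0.41, against 0.01 for all genes, and 7 of the 10 had a positive value. This comparison uses the same Control libraries as the comparison of YAP5SA with Control. DESeq2 called Bax alone (0.87, adjusted p = 0.00812). Bax stood at 53.1 and 46.3 CPM, above every Control library, with a log2 difference of 0.89 ± 0.22 (adjusted p = 0.0574, edgeR). Ccng1 stood at 31.03 and 30.01 CPM, within the Control range because of Control 3, with a difference of -0.92 ± 0.35 (adjusted p = 0.226). All double-virus libraries belonged to batch 1. Within batch 1 alone edgeR called both, Bax at 0.94 (adjusted p = 0.0351) and Ccng1 at -1.25 (adjusted p = 0.0175), and there the Controls were the 2 libraries with most mitochondrial counts. Without these Controls Bax was at 0.75 (adjusted p = 0.244) and Ccng1 at -0.32 (adjusted p = 0.795).

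Of the 10, 5 lay above every Control library with both viruses (14.9% of all genes did): Bax, Phlda3 (8.73 and 6.12 CPM), Bbc3 (6.36 and 7.18 CPM), Aen (9.35 and 8.96 CPM) and Eda2r (5.00 and 4.14 CPM). Phlda3 differed by 0.89 ± 0.43 (adjusted p = 0.377) and Bbc3 by 0.83 ± 0.57 (adjusted p = 0.587, both edgeR). Both double-virus libraries were female and 3 of the 5 Controls male, and with a sex term Bbc3 was at 0.054 (adjusted p = 0.996). No member lay below every Control library, as 8.43% of all genes did. Zmat3, at 6.75 and 7.54 CPM, overlapped with Control (0.17 ± 0.36, adjusted p = 0.889). Mdm2 (166 and 156 CPM), Trp53inp1 (9.19 and 10.5 CPM) and Gdf15 (1.94 and 3.77 CPM) also overlapped with Control. Trp53 stood at 70.9 and 68.3 CPM, above every Control library (1.48 ± 0.57, adjusted p = 0.256; 0.26 without Control 1 and Control 2), and Cdkn1a at 16.2 and 15.7 CPM (0.82 ± 0.44, adjusted p = 0.449, both edgeR). With a sex term these values were 0.95 for Trp53 and 0.46 for Cdkn1a. In the lists around the 10, 1 gene was called, Ddit3 of the integrated stress response, which fell by 1.30 ± 0.27 (adjusted p = 0.016, edgeR).

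With MEF2A added to YAP5SA, edgeR called none of the 10 and 0% of all genes. DESeq2 called none of the 10 either. Zmat3 was the member nearest to a difference. Both double-virus libraries (6.75 and 7.54 CPM) lay below all YAP5SA libraries, as 8.79% of all genes did, with a log2 difference of -0.79 ± 0.38 and a 95% interval of -1.59 to 0.01 (adjusted p = 1). For Bax the interval was -0.66 to 0.32 and for Phlda3 -1.51 to 0.44. The test of whether the effects of both viruses together departed from the sum of the single effects called none of the 10 and none of all genes in edgeR (0%).

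**Figure D4:**
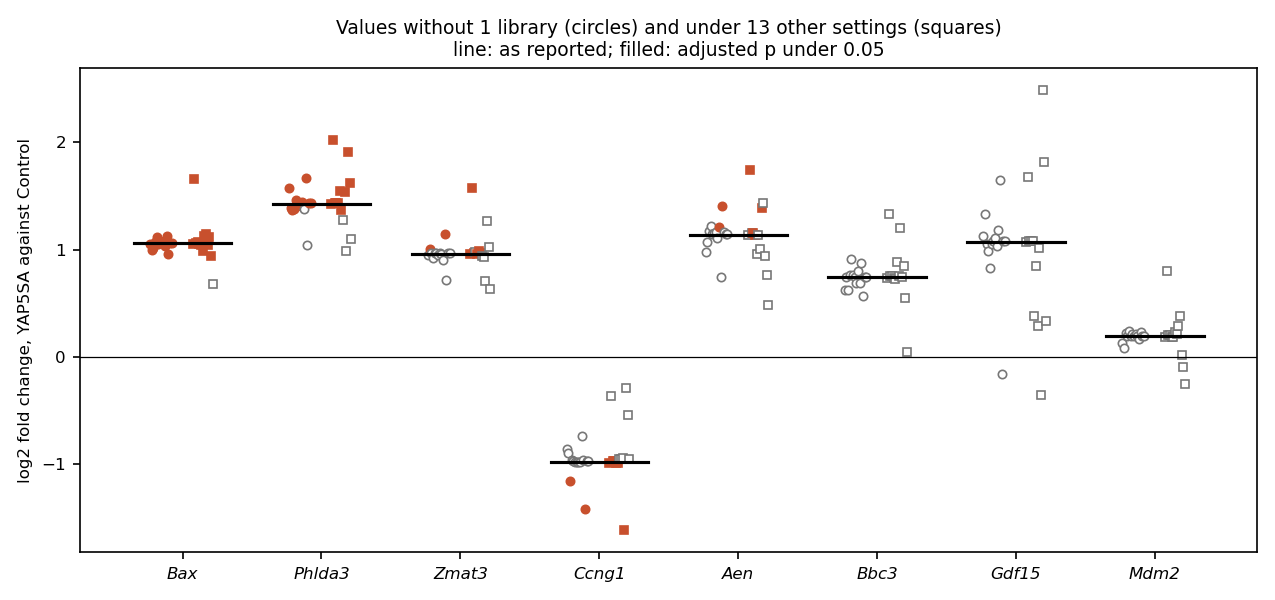
Log2 fold change in YAP5SA against Control (vertical axis) of 8 of the targets when 1 of the 14 libraries was left out (circles) and under 13 other settings (squares); lines are the reported values and filled symbols have an adjusted p under 0.05. All circles of Bax are filled, between 0.96 and 1.13, whereas most circles of Zmat3 and Ccng1 are open, and the values of Gdf15 fall on both sides of 0.

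Over the 14 libraries, the mean z-score of the 10 targets was highest in YAP5SA 1 (0.71) and YAP5SA 3 (0.69), and 0.35 in YAP5SA 2. It was 0.46 and 0.42 with both viruses and -0.62 to 0.04 in the Controls. In MEF2A 1 to 3 it was 0.07, 0.10 and -0.32, and it was lowest in MEF2A 4 (-1.15). The genes whose log2 CPM followed this mean most closely were Junb (Pearson r = 0.949), Sema4c (0.937), Lif (0.934), Gm44950 (0.932) and Piezo1 (0.931). These r describe 14 libraries that share batches and viruses and that fall into groups, and the 5 genes were picked as the highest of all 17987.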

How the data were processed

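Nuclear poly-A RNA of 14 mouse heart libraries was analysed from the table of raw read counts per gene deposited by the authors; per the submitters' processing notes, STAR, edgeR, limma and the GRCm38 genome were used. How reads were counted, with which annotation release and strand setting, is not given in the sources used here, and the libraries were non-directional per the labels' protocols, so reads of overlapping genes cannot be separated. Ensembl identifiers were matched to GENCODE vM21 symbols (54409 of 54446; 102 symbols occurred on more than 1 identifier, and the first was used). 0 sample columns were left unmapped, and no 2 columns were identical.

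Genes were filtered with filterByExpr (minimum count 10, minimum total 15), scaled by TMM and tested with edgeR 4.0.16 (R 4.3.3; quasi-likelihood F-test, robust) in 1 model of group plus batch fitted to all 14 libraries; p-values are two-sided and Benjamini-Hochberg adjusted over all 17987 tested genes, and a gene was called at adjusted p under 0.05. Fold changes are log2, with the standard error from the F statistic and 95% intervals from its degrees of freedom; the biological coefficient of variation was 0.503. The z-scores and the likeness to other genes use log2 CPM with a prior count of 2. Library totals of 16171068 to 24027622 counts limit the least abundant members, Eda2r and Gdf15, which fell to 3 and 2 counts in 1 library each. On simulated counts for YAP5SA against Control (17261 genes), the fit made 108 calls, 4 of them false. It recovered 28% of genes changed by 1 and 76% of genes changed by 2 on the log2 scale. The simulation changed far fewer genes than the 1773 called in the data, and none at the lowest levels. It held no batch effect and no other group difference, so these rates need not hold for the data.

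The 10 members, the lists (p53 regulators, other p53 targets, BCL2 family, integrated stress response, and markers of cardiomyocytes, endothelium, fibroblasts, macrophages, mural cells, lymphocytes and cycling cells) and the tests were chosen with earlier results of these data known. Named from each list were up to 4 genes called in YAP5SA against Control and up to 2 called in another comparison, by smallest p, besides all 10 members, Trp53, Cdkn1a and the 5 genes most like the members. Lists are described by counts and medians only. Alternatives were DESeq2 1.42.0, limma 3.58.1 (voom), other scalings and filters, a sex term, no batch term, a replicate block, single batches and leaving out libraries.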

Additional observations from a re-analysis of the deposited data

Results flagged for a closer look

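In 1 of 24 groups of 4 or 5 libraries examined, 1 library stood far from the rest: Aen in MEF2A 4 was 2.86 CPM, while the other MEF2A libraries had 6.59 to 7.11 CPM. The gap took 0.876 of the range of the group, above Dixon's 95% critical value for 4 values, which chance alone passes in about 1 in 20 groups. MEF2A 4 was also the lowest MEF2A library for Bbc3 and Gdf15, and it had 23.2% mitochondrial counts, the most in its group; whether this share bears on Aen was not tested.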

How the results depend on the processing

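The number of the 10 called in YAP5SA against Control was 4. It was 1 with a replicate block, 2 in batch 1 alone, 2 without Control 1 and Control 2, and 0 without these and YAP5SA 3. Batch 2 alone holds only 1 YAP5SA library, so its number is not given. Leaving out 1 library at a time gave 1 to 4. Against MEF2A it was 3, and 6 with DESeq2, 0 in batch 1 alone, 6 without Control 1 and Control 2, 0 without these and YAP5SA 3, and 0 to 5 leaving out 1 library (0 without YAP5SA 3). With both viruses against Control it was 0, 1 with DESeq2, 2 in batch 1 alone, and 0 to 1 leaving out 1 library (1 without MEF2A 2). For MEF2A against Control, both viruses against YAP5SA and the interaction it was 0 in every alternative run; both viruses could not be fitted in batch 2 alone, which holds no such library.

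Scaling by library totals alone raised the median log2 fold change of all genes in YAP5SA against Control from 0.06 to 0.694 and turned the split of called genes from 1023 higher and 750 lower to 1703 and 33 (against MEF2A from 1398 and 1281 to 1526 and 79, median 0.511; with both viruses against Control from 209 and 35 to 412 and 0, median 0.842). Under it Ccng1 was no longer called in YAP5SA against Control (-0.36, which is -1.05 relative to that median; adjusted p = 0.58), Aen was (adjusted p = 0.0372), and Trp53inp1 (0.0037) and Atr (0.10) changed sign, as did Mdm2 (0.29) and Trp53inp1 (0.29) against MEF2A. Further changes of sign in the YAP5SA comparisons, none of a called member, were Mdm2 (0.076), Eda2r (-0.022) and Trp53inp1 (0.23) against MEF2A with a sex term; Gdf15 against Control in batch 1 (-0.35); Eda2r in batch 2 against Control (-0.35) and against MEF2A (-0.18); Mdm2 (-0.091) and Eda2r (-0.081) against Control without Control 1 and 2; and Mdm2 against Control without these and YAP5SA 3 (-0.25; in MEF2A -0.0036). Apart from runs leaving out 1 library, values of the 10 with the opposite sign numbered 6 of 130 in YAP5SA against Control, 6 of 130 against MEF2A, 16 of 130 in MEF2A against Control, 11 of 120 and 5 of 120 for both viruses against Control and YAP5SA, and 2 of 120 in the interaction, with 0 called. Leaving out 1 library, Eda2r against Control ranged from -0.15 to 0.72 and Gdf15 from -0.16 to 1.65. The causes were not tested.

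Same-numbered libraries of different groups did not deviate together (r of -0.184 to 0.089 over 16 pairs), so the replicate number was not used as a pairing; with the replicate block in place of batch, Bax stayed called against Control (1.13, adjusted p = 0.011) and Phlda3 (adjusted p = 0.073), Zmat3 (0.143) and Ccng1 (0.148) did not, and genes called fell from 1773 to 938.

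Genes called in YAP5SA against Control numbered 1773, and 2951 with DESeq2, 2538 with no filter, 544 without YAP5SA 3, 692 without YAP5SA 1 and 75 without Control 1, Control 2 and YAP5SA 3; against MEF2A, 2679 and 841 to 3870 leaving out 1 library.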
